A study of Mus musculus with 3 samples.

Results

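Interferon-stimulated genes were followed through the healing of mouse skin wounds as a set of 39 genes picked by symbol. The rule used no measured value, but the set was chosen with earlier results of these data known. Of these, 37 matched among the 32285 genes of the deposited matrices and all 37 had at least 1 UMI (unique molecular identifier, 1 captured RNA molecule) in each section. *Mx1* and *Mx2* were not analysed here. The data were spatial transcriptomes made on Visium slides, where spots with positional barcodes under a tissue section capture polyadenylated RNA. Full-thickness punch wounds had been made in the dorsal skin of male C57BL/6J mice, and 1 fresh frozen section each was taken on Day 3, Day 7 and Day 14. All 3 sections came from wounded skin, no genotype or drug set them apart, and no unwounded section was used here.

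Interferons are secreted proteins that cells release after sensing foreign or misplaced nucleic acid (type I and III) or that activated T and NK cells release (type II, interferon gamma). Their receptors signal through JAK kinases to STAT proteins, which bind the interferon-stimulated response element (ISRE) in a complex with IRF9 or the gamma-activated site (GAS) without it. The genes switched on include sensors, transcription factors that reinforce the response, proteins that block viral replication, GTPases of cell-autonomous immunity and chemokines for T cells, and in skin wounds such genes are known to be expressed by infiltrating leukocytes and by resident cells.

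The sections held 664, 549 and 697 spots under tissue on Day 3, Day 7 and Day 14, with 1772259, 4442962 and 4611723 UMIs in all and a median of 1513, 6687 and 4827 UMIs per spot. With 1 section per day no test between days was possible. Intervals in parentheses are 95% intervals of counting error (exact Poisson for a level, exact conditional binomial for a ratio), and variation between animals, sections and slides is not in them. Levels are given as CPM, UMIs per 1000000 UMIs of all genes under tissue. The depth was lowest on Day 3, where 144 spots held fewer than 500 UMIs, against 10 and 8 on the later days. Spots outside the marked tissue held a further 1703210, 6457066 and 4715272 UMIs. The levels by day and by region leave them out, and the values there, which change the order of days for *Isg15*, come last. The skin label was borne out by marker lists of 10 genes: epidermal keratin and cornified envelope genes summed to 9431, 4442 and 11937 CPM, and all 10 were detected in each section. The 10 muscle genes summed higher, to 41378, 54292 and 62524 CPM. Muscle RNA is therefore part of the total behind each CPM.

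Promoter windows, from 250 bases before to 50 bases after the gene start, were present for 30 of the 37 genes in the RefSeq table of build GRCm38.p6, the build (mm10) named in the submitters' processing notes. The core of the ISRE was searched as GAAANNGAAA on both strands, where it reads TTTCNNTTTC on the other strand, and the core of the GAS as TTCNNNGAA, which reads the same on both strands. Overlapping matches were kept. The ISRE core was in 18 of the 30 windows (60%) and in 1079 of the windows of 27025 genes (3.99%). The GAS core was in 7 of the 30 (23.3%) and in 2582 of all (9.55%). *Oas1a*, *Bst2*, *Ifitm3* and *Igtp* held both. The following stretches of 60 bases are examples from members that held the ISRE core. Not all members with differences by day or region held it. *Irf7*, *Oasl2*, *Ifi47* and *Xaf1* had no ISRE core in the window, and *Ifi27l2a* and *Rtp4* had no window. Capitals mark the ISRE core, overlapping matches merged, and the sequences read 5′ to 3′ on the strand of the gene.
*Isg15*, chr4:156200850-156200909, minus strand: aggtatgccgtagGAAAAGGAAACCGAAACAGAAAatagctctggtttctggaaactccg
*Bst2*, chr8:71537562-71537621, minus strand: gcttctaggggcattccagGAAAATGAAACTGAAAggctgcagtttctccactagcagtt
*Ifit3*, chr19:34583382-34583441, plus strand: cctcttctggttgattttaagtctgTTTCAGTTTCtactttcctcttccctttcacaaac
*Ifit3b*, chr19:34607778-34607837, plus strand: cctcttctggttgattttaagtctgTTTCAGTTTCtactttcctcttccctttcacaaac
*Gbp2*, chr3:142620579-142620638, plus strand: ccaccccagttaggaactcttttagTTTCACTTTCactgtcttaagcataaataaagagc
*Cxcl10*, chr5:92349068-92349127, minus strand: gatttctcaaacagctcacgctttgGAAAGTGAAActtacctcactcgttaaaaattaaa
*Isg15* and *Bst2* held runs of 3 and 2 overlapping ISRE cores, whereas the other stretches held 1. The stretches of *Ifit3* and *Ifit3b* differed at 0 of 60 bases. Both lie after the outermost gene starts, at 34583119 and 34607530, because their windows rest on a start site further in. No ISRE core was found in the windows of 12 genes: *Irf1*, *Irf7*, *Irf9*, *Herc6*, *Ifit2*, *Oasl1*, *Oasl2*, *Cmpk2*, *Ifi47*, *Ifi35*, *Ifi44* and *Xaf1*. A match is a run of letters and not a shown binding site, and its absence says only that these letters are not in this window.

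The summed level of the 37 genes was 2097 CPM (2030 to 2166) in the Day 3 section and 1951 CPM (1911 to 1993) in the Day 7 section, and the Day 14 section had 942 CPM (914 to 970). Day 7 was lower than Day 3 by a small amount, with a log2 ratio of -0.10 (-0.16 to -0.05). That direction turned to 0.10 when all spots of the slide were used, and without *Ifi27l2a* and *Ifitm3*, left out after seeing the data, the ratio was -0.038 (-0.13 to 0.053). Day 14 was lower than both, at -1.16 (-1.22 to -1.09) against Day 3 and -1.05 (-1.10 to -1.0) against Day 7. This sum rested on a pair of genes: *Ifi27l2a* and *Ifitm3* supplied 1269 and 1059 of the 3717 member UMIs on Day 3, and 547 and 1164 of 4343 on Day 14. Without them the sum was 784, 763 and 571 CPM, and Day 14 against Day 3 was -0.46 in place of -1.16. The lower Day 14 level was therefore shared unevenly among the genes, which are described by role below. Over bulk sums of spots, fewer cells of a type and less RNA per cell cannot be told apart.

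Among the genes with at least 50 UMIs over both sections, 29 members were counted for Day 7 against Day 3: 3 were at least 2-fold higher (*Isg15*, *Ddx58*, *Ifi47*) and 0 at least 2-fold lower, where 8.04% and 6.49% of all 10541 genes were. For Day 14 against Day 3, 3 of 29 were higher (*Ifit3*, *Ifi47*, *Cxcl10*) and 9 lower (*Zbp1*, *Oasl2*, *Oas2*, *Bst2*, *Ifitm3*, *Trim30a*, *Ifi27l2a*, *Rtp4*, *Parp14*), where 14.4% and 6.83% of 10955 genes were. For Day 14 against Day 7, 1 of 30 was higher (*Cxcl10*) and 9 lower (*Ddx58*, *Irf7*, *Isg15*, *Bst2*, *Ifitm3*, *Ifi27l2a*, *Rtp4*, *Xaf1*, *Parp14*), where 10.9% and 7.34% of 11746 genes were. By interval, 5 of the 29 members in the first comparison lay wholly above no change and 7 wholly below, where 23.5% and 21.5% of all genes did. The median log2 ratio of the counted members was -0.17, -0.37 and -0.41 in these comparisons, while that of all counted genes was 0.04, 0.18 and 0.12. The Day 3 section serves in the first 2 comparisons and the Day 14 section in the last 2, so they are not independent of each other. Of the 37 genes, 20 had their highest level on Day 3, 10 on Day 7 and 7 on Day 14. Among those with at least 50 UMIs over the 3 sections the counts were 17, 9 and 6. These counts have no share of all genes beside them and are a description only. Day 3 had the fewest UMIs, and *Ifit2* was highest there from 4 UMIs.

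**Figure D1:**
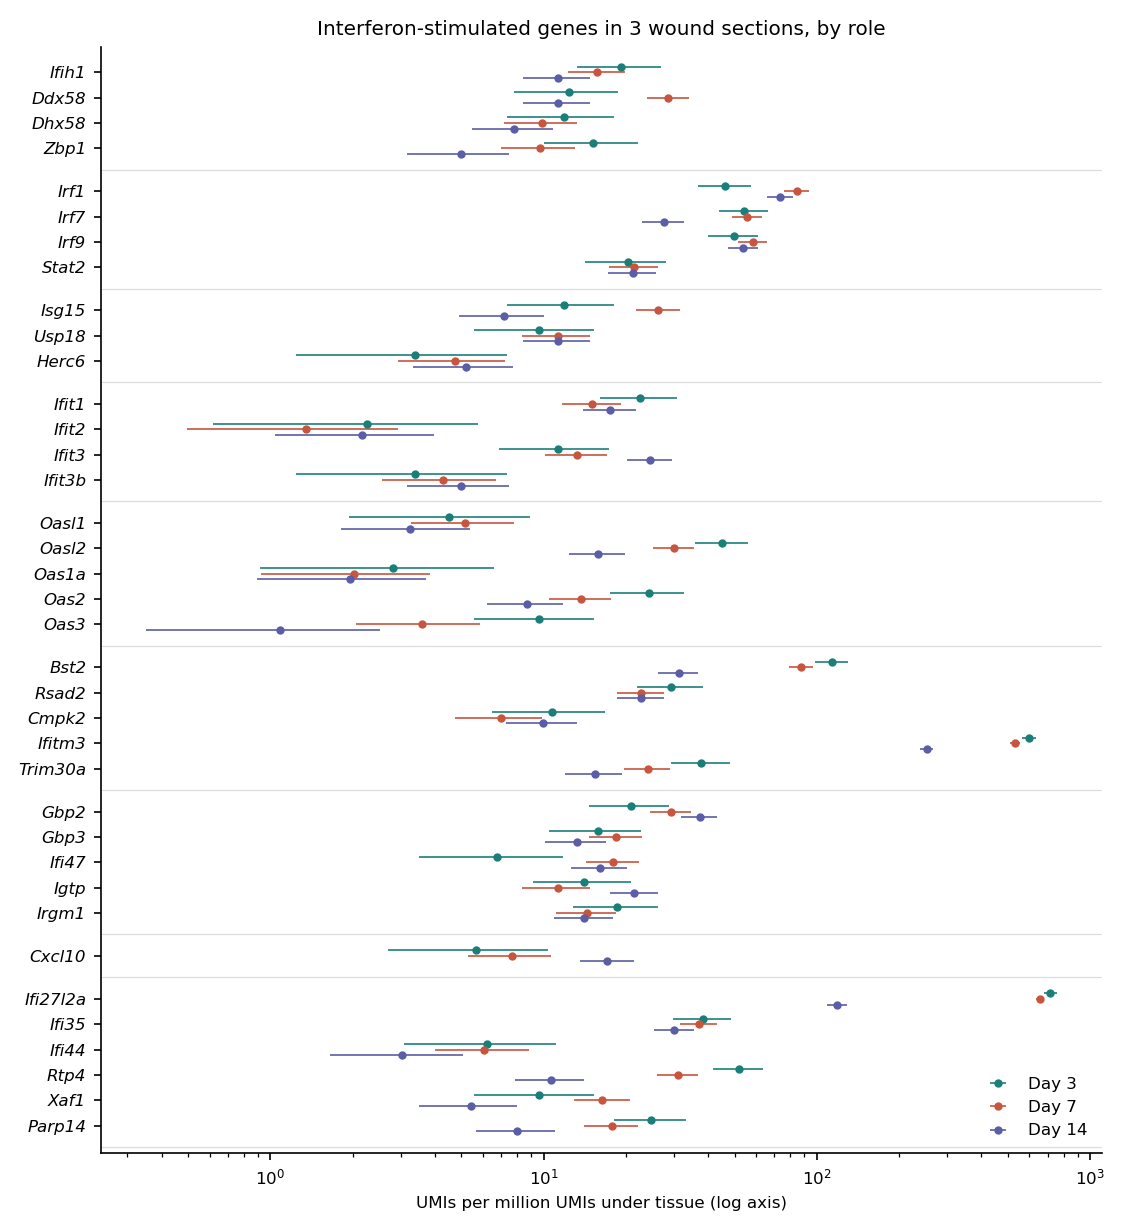
Level of each of the 37 genes in CPM (log axis) on Day 3, Day 7 and Day 14, grouped by role from sensors at the top to further interferon-induced genes at the bottom. Points are the sums of 1 section each and bars the 95% counting intervals. *Isg15* and *Ddx58* stand apart on Day 7, whereas *Bst2*, *Ifitm3*, *Ifi27l2a* and *Rtp4* are lowest on Day 14.

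The sensors recognize nucleic acid in the cytosol, and of the 4 only *Ddx58*, which encodes the RNA sensor RIG-I, was at least 2-fold higher on any later day. It had 22, 127 and 52 UMIs on the successive days, or 12.4, 28.6 and 11.3 CPM. The log2 ratio was 1.20 (0.54 to 1.93) for Day 7 against Day 3 and -1.34 (-1.84 to -0.87) for Day 14 against Day 7, so that Day 7 stood above both neighbours beyond counting error. *Ifih1*, encoding the RNA sensor MDA5, was at 19.2, 15.8 and 11.3 CPM, and *Dhx58*, encoding the related LGP2, at 11.8, 9.90 and 7.81 CPM. These values ran downward, with an interval excluding no change only for *Ifih1* on Day 14 against Day 3, at -0.77 (-1.42 to -0.10). *Zbp1*, whose product senses Z-form nucleic acid, was at 15.2, 9.68 and 4.99 CPM and was lower on Day 14 than on Day 3 by a log2 ratio of -1.61 (-2.48 to -0.75).

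The transcription factors took several courses. *Irf1*, an early factor of the interferon gamma response, was at 46.3, 84.4 and 73.3 CPM and was higher on Day 7 than on Day 3 by 0.87 (0.52 to 1.23) on the log2 scale, which is under 2-fold. *Irf7*, the factor that amplifies type I interferon production, was at 54.2 and 55.6 CPM on the first days and 27.5 CPM on Day 14, a log2 ratio of -1.01 (-1.33 to -0.70) against Day 7. *Irf9* and *Stat2*, genes of the ISRE-binding complex, moved less. *Irf9* was at 49.7, 58.3 and 53.8 CPM, and *Stat2* stayed between 20.3 and 21.4 CPM, with intervals of the log2 ratios that included 0 in each comparison.

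*Isg15* encodes a ubiquitin-like protein that is coupled to target proteins during the interferon response. It was at 11.8, 26.3 and 7.16 CPM (21, 117 and 33 UMIs), with a log2 ratio of 1.15 (0.47 to 1.90) for Day 7 against Day 3 and -1.88 (-2.48 to -1.31) for Day 14 against Day 7. Of the other genes of this system, the intervals of all ratios included no change. *Usp18*, whose product removes ISG15 and dampens receptor signalling, was at 9.59, 11.3 and 11.3 CPM. *Herc6*, encoding the mouse ISG15 ligase, was at 3.39, 4.73 and 5.2 CPM, from 6 UMIs on Day 3.

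The Ifit genes encode proteins that bind viral RNA. Summed over the 4 genes they were at 39.5, 34.0 and 49.2 CPM. *Ifit3* carried this, at 11.3, 13.3 and 24.5 CPM and a log2 ratio of 1.12 (0.42 to 1.88) for Day 14 against Day 3. *Ifit1* was at 22.6, 15.1 and 17.6 CPM and *Ifit2* between 1.35 and 2.26 CPM. *Ifit3b* was at 3.39, 4.28 and 4.99 CPM. Since *Ifit3* and *Ifit3b* are near-identical copies, the split of reads between them is uncertain.

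The Oas genes, whose products make the messenger that activates RNase L or are relatives of such enzymes, were lower on each later day as a group, at 86.3, 54.5 and 30.8 CPM for the 5 genes. The log2 ratio of their sum was -0.66 (-0.96 to -0.36) for Day 7 against Day 3 and -0.82 (-1.13 to -0.52) for Day 14 against Day 7. *Oasl2* was at 45.1, 29.9 and 15.8 CPM and *Oas2* at 24.3, 13.7 and 8.67 CPM, with log2 ratios of -1.51 (-1.99 to -1.04) and -1.48 (-2.14 to -0.83) for Day 14 against Day 3. *Oas3* held 17, 16 and 5 UMIs and was too sparse for the count, at -3.15 (-4.94 to -1.65). *Oas1a* and *Oasl1* stayed at or below 5.18 CPM, with intervals that included no change. Reads of *Oas1a* may be shared with its close copies, so its value is uncertain.

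Of the remaining antiviral effectors, 3 of 5 were at least 2-fold lower on Day 14 than on Day 3, where 6.83% of all genes were. These 3 are among the 9 members already listed as lower. *Bst2*, encoding tetherin, which holds budding virions at the cell surface, was at 113, 87.6 and 31.2 CPM, a log2 ratio of -1.86 (-2.18 to -1.54) for Day 14 against Day 3. *Ifitm3*, whose product blocks viral entry from endosomes, was at 598, 533 and 252 CPM, at -1.24 (-1.36 to -1.12). *Trim30a*, encoding a tripartite-motif protein that restrains inflammatory signalling, was at 37.8, 24.1 and 15.4 CPM, at -1.30 (-1.80 to -0.79). The intervals of these 3 genes on Day 14 lay below those of the earlier days. *Rsad2*, encoding viperin, was at 29.3, 22.7 and 22.8 CPM, and its neighbour *Cmpk2*, a nucleotide kinase gene, at 10.7, 6.98 and 9.97 CPM, both with intervals that included no change in all comparisons.

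The interferon gamma GTPases act on vacuoles that hold pathogens, and their 5 genes summed to 76.2, 91.4 and 102 CPM. *Ifi47* was at 6.77, 18 and 16.0 CPM, higher than on Day 3 by 1.41 (0.53 to 2.42) on Day 7 and 1.24 (0.35 to 2.26) on Day 14 on the log2 scale. *Gbp2* was at 20.9, 29.3 and 37.3 CPM, at 0.84 (0.32 to 1.39) for Day 14 against Day 3, and *Igtp* at 14.1, 11.3 and 21.5 CPM, at 0.93 (0.43 to 1.45) for Day 14 against Day 7. *Gbp3* and *Irgm1* stayed between 13.2 and 18.6 CPM. *Cxcl10*, whose product attracts T cells that carry CXCR3, was at 5.64, 7.65 and 17.1 CPM (10, 34 and 79 UMIs), with a log2 ratio of 1.60 (0.65 to 2.72) for Day 14 against Day 3 and 1.16 (0.57 to 1.79) against Day 7. The GTPase families hold many similar copies, so values of single members are uncertain where reads could be shared.

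Among the further interferon-induced genes, *Ifi27l2a*, which encodes a small membrane protein, was at 716, 655 and 119 CPM, a log2 ratio of -2.59 (-2.74 to -2.45) for Day 14 against Day 3. On Day 3, 2 spots held 113 and 105 of its 1269 UMIs (17.2%), and without them it was at 600 CPM. *Rtp4*, whose product is a chaperone of receptors that also restricts viruses, was at 51.9, 31.1 and 10.6 CPM, at -2.29 (-2.82 to -1.77). *Parp14*, a mono-ADP-ribosyltransferase gene, was at 24.8, 17.8 and 8.02 CPM, at -1.63 (-2.30 to -0.97). *Xaf1*, a gene linked to apoptosis, peaked on Day 7 at 9.59, 16.4 and 5.42 CPM, with -1.60 (-2.32 to -0.93) for Day 14 against Day 7. *Ifi35* was at 38.4, 37.1 and 30.1 CPM and *Ifi44* at 6.21, 6.08 and 3.04 CPM.

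The rest of the pathway was read from 6 further lists. Of all counted genes, 8.04% were at least 2-fold higher and 6.49% lower on Day 7 against Day 3. For Day 14 against Day 3 the shares were 14.4% and 6.83%. Interferon transcripts were close to absent: of 21 ligand genes, 0, 2 and 8 UMIs were found on the 3 days, 8 of the last being *Ifng*, the gene of interferon gamma, which had 0 and 1 UMI before. A count of 0 on Day 3 allows up to 2.08 CPM for all ligands (upper end of the exact Poisson interval). Of the 6 receptor genes, 2 of 5 counted were at least 2-fold lower on Day 7 than on Day 3, *Ifngr1* (397 to 114 CPM) and *Il10rb* (114 to 42.1 CPM), and on Day 14 *Ifnar2* was also lower, at 29.9 CPM against 71.1 CPM. *Ifnlr1*, of the type III receptor, was higher on Day 14, at 11.9 CPM from 55 UMIs against 2.26 CPM from 4 UMIs. Of the 11 JAK-STAT genes, 0 were higher and 1 lower on Day 7 and on Day 14 against Day 3, *Socs3*, a feedback inhibitor (64.3, 30.6 and 24.1 CPM).

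Of 14 matched genes of nucleic acid sensing, 11 were counted for Day 7 against Day 3, with *Ticam1* higher and *Tlr7* lower, and 10 for Day 14 against Day 3, with *Ticam1* higher and *Tmem173* (STING) and *Myd88* lower. The genes of MHC class I presentation summed to 5726, 4522 and 5036 CPM. Against Day 3 the log2 ratio of the sum was -0.34 (-0.38 to -0.31) on Day 7 and -0.19 (-0.22 to -0.15) on Day 14. The median ratio of the single genes counted went the other way, at 0.31 and 0.10. Of these 17, 0 were 2-fold higher or lower on Day 7 against Day 3, while 16 were counted, and on Day 14 *H2-Q6*, *Tap2* and *Nlrc5*, the last encoding the transactivator of class I genes, were higher than on Day 3. Of 79 other matched interferon-stimulated genes, 54 were counted on Day 7 against Day 3. There 3 were higher and 10 lower, where 8.04% and 6.49% of all genes were. On Day 14 against Day 3, 48 were counted, with 5 higher and 14 lower, where 14.4% and 6.83% of all genes were. The 5 were *Cxcl9*, *Gbp4*, *Iigp1*, *Ccl5* and *Daxx*, and the 14 included *Ifitm1*, *Ifitm2*, *Ifi204* and *Slfn5*. *Cxcl9*, like *Cxcl10* a ligand of CXCR3, was at 5.08, 7.88 and 16.9 CPM.

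Marker genes of several cell types moved over the same days. The 10 macrophage genes summed to 4681, 2748 and 1119 CPM and the 10 neutrophil genes to 2393, 217 and 146 CPM, while the 10 T and NK cell genes summed to 36.1, 55.1 and 91.7 CPM. The 10 fat genes were at 7775, 7622 and 2059 CPM and the 10 endothelial genes at 567, 607 and 211 CPM. The macrophage, neutrophil, fat, endothelial, granulation (2204, 5943 and 1625 CPM) and matrix fibroblast (55800, 76776 and 40040 CPM) lists were all lowest on Day 14. The muscle list and the T and NK cell list were lowest on Day 3. The epidermal list and both dendritic cell lists were lowest on Day 7. All 10 macrophage genes were detected on each day, *Retnlg* of the neutrophil list was at 0 on Day 7, and *Gzmb* of the T and NK cell list was at 0 on Day 7 and Day 14. The part of these shifts in the levels above was not tested.

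Day 7 granulation tissue, the new connective tissue that fills a wound, is rich in tenascin C and periostin. Granulation spots were defined in each section as the 20% of spots with the highest share of *Tnc* and *Postn* in their UMIs, among spots with at least 500 UMIs, which gave 104, 108 and 138 spots. The definition applies to relative rank: *Tnc* was at 145, 1172 and 158 CPM over the 3 days and *Postn* at 240, 3692 and 550 CPM, so that *Postn* weighed most in the choice. On Day 3, 306 of 520 spots held no UMI of either. The median granulation spot held 13318 UMIs on Day 7 against 5526 for the others, 2595 against 1933 on Day 3 and 5146 against 4737 on Day 14. In UMIs per 10000 of both genes, the lowest granulation spot and the highest spot outside were at 6.11 and 6.09 on Day 3, 50.5 and 50.5 on Day 7, and 9.58 and 9.57 on Day 14. The median granulation spot was at 9.30, 68.7 and 13.0 in day order, and the median other spot of Day 7 at 32.1. Granulation spots of Day 3 and Day 14 were thus poorer in these genes than the other spots of Day 7. The name marks a rank within a section and not the same tissue on each day.

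The summed level of the 37 genes was only slightly higher in Day 7 granulation spots, at 2054 CPM against 1898 CPM in the other spots, a log2 ratio of 0.11 (0.05 to 0.18). The difference was larger on Day 14, at 1230 CPM against 876 CPM and 0.49 (0.39 to 0.59), and was 0.23 (0.12 to 0.33) on Day 3, at 2356 CPM against 2009 CPM. Without *Ifi27l2a* and *Ifitm3* the ratios were 0.49 on Day 3, 0.34 on Day 7 and 0.52 on Day 14. Over all genes counted, the median ratio was 0.10, -0.01 and -0.01. Cell markers differed between the same spots. Macrophage genes were higher in granulation spots by 0.71, 0.54 and 1.03 on the log2 scale in day order. Dendritic cell and MHC class II genes were at 0.49, 0.12 and 1.06, and matrix fibroblast genes at -0.076, 0.50 and 0.84. Endothelial genes were at 0.67, 0.36 and 0.16, and neutrophil genes at 0.71, -0.17 and 0.15. Muscle genes (-1.21), epidermal genes (-1.27) and fat genes (-0.92) were lower there on Day 7. The part of these markers in the member ratios was not tested.

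On Day 7, 26 members had at least 50 UMIs, and 2 were at least 2-fold higher in granulation spots, *Isg15* and *Bst2*, where 1.45% of 9422 genes were; 0 were 2-fold lower, where 5.86% were. *Isg15* had 87 UMIs in the 108 granulation spots and 29 in the other 431 spots, which is 56.5 CPM (45.3 to 69.7) against 10.0 CPM (6.69 to 14.4), a log2 ratio of 2.50 (1.88 to 3.16). This ratio was rank 1 among those of the 9422 genes, *Tnc* and *Postn* included. *Bst2* was at 131 CPM against 64.8 CPM, at 1.01 (0.72 to 1.31). Below 2-fold, the intervals of *Irf7* (0.67), *Ifitm3* (0.51), *Gbp3* (0.70), *Ifi47* (0.91) and *Xaf1* (0.87) also lay above 0, which made 7 members above 0 and 2 below, against 15.6% and 16.9% of all genes. In the opposite direction, *Rsad2* was at 14.9 CPM against 26.9 CPM, at -0.85 (-1.59 to -0.16), and *Ifi27l2a* at 510 CPM against 732 CPM, at -0.52 (-0.64 to -0.40).

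The *Isg15* difference depended on the gene that defined the spots. Spots ranked by *Postn* alone gave a log2 ratio of 2.49, and a list of 12 further granulation genes gave 2.43, but spots ranked by *Tnc* alone gave 32.9 CPM against 23.7 CPM and 0.48 (-0.12 to 1.05). The *Tnc* spots shared 59 of their 108 spots with the main definition and the *Postn* spots 98. Among spots deeper than the median spot of the section, a comparison added after seeing the data, the ratio was 2.30 (1.63 to 3.02). After thinning each spot to 1000 UMIs, *Isg15* was found in 5.61% of 107 granulation spots (exact binomial interval 2.09% to 11.8%), in 0.718% of 418 other spots (0.148% to 2.08%) and in 0.952% of muscle-rich spots. Unthinned, at a median of 6795 UMIs per spot, the shares were 37% and 6.26%. The intervals of the thinned shares take each spot as a separate draw. Spots of 1 section are not replicates, so these intervals may be too narrow.

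On Day 3, 11 members were counted and 1 was at least 2-fold higher in granulation spots, *Irf7*, where 5.52% of 5637 genes were; 0 were 2-fold lower, where 6.95% were. *Irf7* was at 89.6 CPM against 42.8 CPM, a log2 ratio of 1.06 (0.44 to 1.68). *Isg15* was under the count minimum, with 15 UMIs in granulation spots and 6 outside. Its level was 33.6 CPM against 4.59 CPM, a log2 ratio of 2.87 (1.42 to 4.53). With spots ranked by *Tnc* alone that ratio was 0.77 (-0.62 to 2.15). *Irf9*, *Bst2*, *Ifitm3* and *Trim30a* had intervals above 0 and *Ifi27l2a* had one below 0, at -0.65 (-0.87 to -0.44). Of the counted members, *Irf7* included, 5 lay above 0 and 1 below, against 20% and 13.5% of all genes.

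On Day 14, 22 members were counted and 3 were at least 2-fold higher, *Irf7* (1.07, 0.49 to 1.62), *Oasl2* (1.19, 0.44 to 1.92) and *Bst2* (1.24, 0.71 to 1.75), where 2.44% of 10029 genes were; 0 were 2-fold lower, where 1.77% were. In all, 10 members had intervals above 0 and 0 below, against 9.38% and 7.79% of all counted genes. *Isg15* had 10 UMIs in granulation spots and 23 outside, at 0.93 (-0.30 to 2.06). Thus *Bst2*, *Irf7* and *Ifitm3* had intervals above 0 in each of the 3 sections, by a rank within each section, whereas *Rsad2* had none above 0. With spots ranked by *Tnc* alone this did not hold on Day 14, where *Irf7* turned to -0.063 (-0.77 to 0.59), *Ifitm3* was at 0.056 (-0.16 to 0.26) and *Bst2* at 0.52 (-0.061 to 1.07). *Bst2* on Day 3 was then at 0.018 (-0.43 to 0.45). Whether the ratio of a gene differs between days was not tested.

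**Figure D2:**
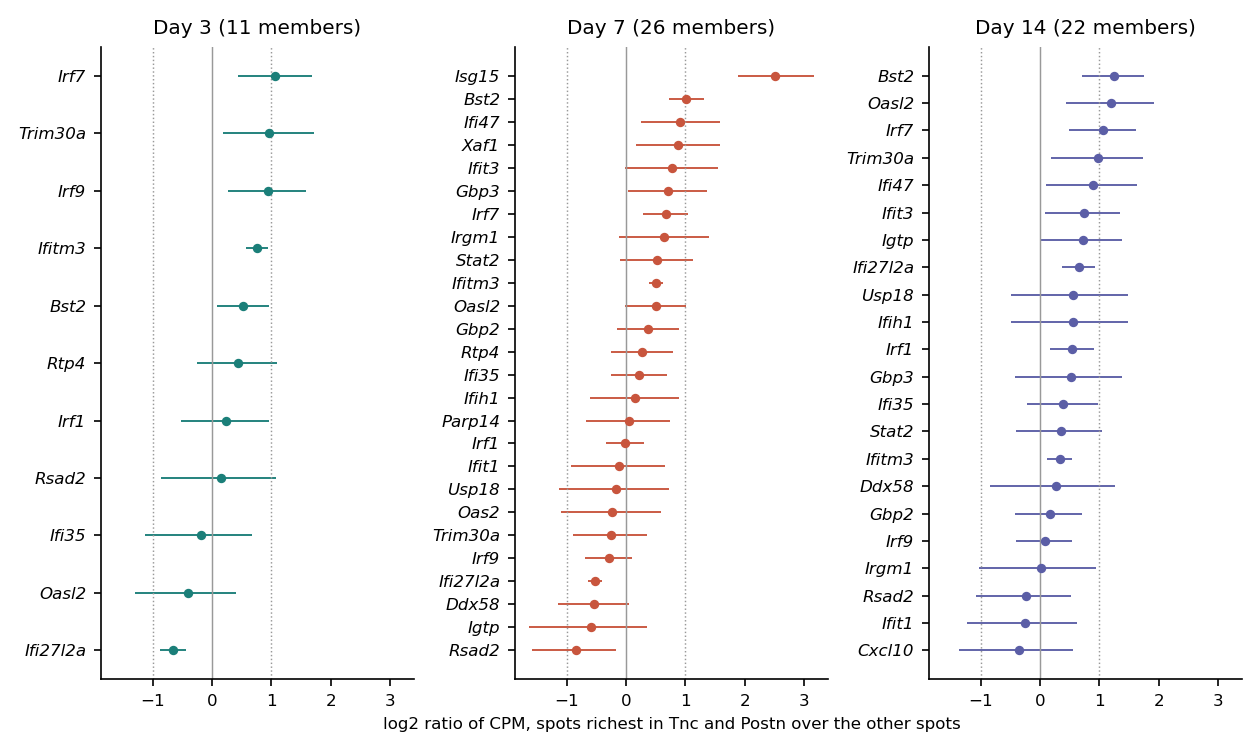
Log2 ratio of CPM between granulation spots (the 20% richest in *Tnc* and *Postn*) and the other spots for the members with at least 50 UMIs in each section, 11 on Day 3, 26 on Day 7 and 22 on Day 14. Points are ratios, bars 95% counting intervals, and dotted lines mark 2-fold. *Isg15* lies alone at 2.50 on Day 7 and, being under the count minimum, is not drawn for Day 3 and Day 14.

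Along *Tnc* plus *Postn* the genes took different shapes. With spots split into 5 equal groups from lowest to highest, Day 7 *Isg15* was at 3.43, 6.28, 13.0, 12.3 and 56.7 CPM, so that the rise lay in the highest group. The Day 3 section has no such order, since most of its spots held neither gene and tie at 0. Day 7 *Bst2* was at 48.0, 69.1, 65.1, 65.7 and 131 CPM, again with a step at the highest group. *Irf7* on Day 7 rose over more groups, at 17.2, 36.4, 55.4, 54.6 and 73.7 CPM. The sum of the 37 genes on Day 7 was lowest in the lowest group (1396 CPM) and between 1908 and 2056 CPM in the other 4.

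**Figure D3:**
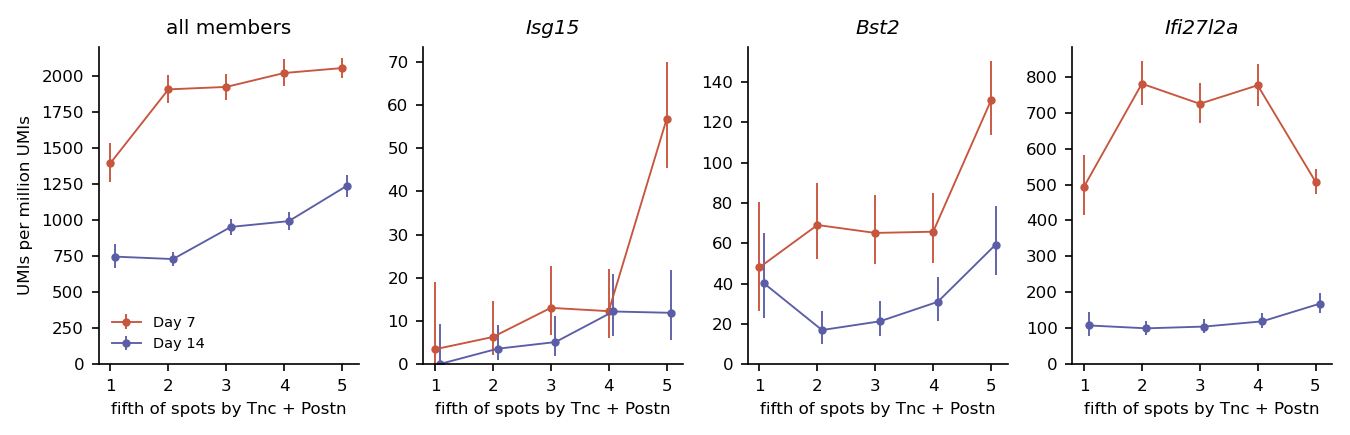
CPM of the 37 genes summed, *Isg15*, *Bst2* and *Ifi27l2a* in 5 equal groups of spots ordered from the lowest (1) to the highest (5) *Tnc* plus *Postn*, on Day 7 and Day 14; bars are 95% counting intervals. *Isg15* and *Bst2* step up in the highest group on Day 7, to 56.7 and 131 CPM.

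To see whether granulation spots were the richest, the same share of spots was taken by 11 marker lists, giving 12 sets of spots per section that overlap each other. The Day 3 T and NK cell set is not used, because 57 of its 104 spots held no UMI of the list. By the sum of all members the richest set on Day 7 was that of endothelial markers (2103 CPM, 2005 to 2205), with the *Tnc* and *Postn* set at rank 3 with 2054 CPM, inside that interval. On Day 3 it was the fat set (3436 CPM), with *Tnc* and *Postn* at rank 5, and on Day 14 the macrophage set (1275 CPM), with *Tnc* and *Postn* at rank 4. Without *Ifi27l2a* and *Ifitm3* the *Tnc* and *Postn* set was at rank 1 on Day 7, at 883 CPM (837 to 931), with the granulation list set also at 883 CPM and the endothelial set at 859 CPM. By this sum it was at rank 5 on Day 3, where the macrophage set was richest (1255 CPM), and at rank 4 on Day 14, where the dendritic cell and MHC class II set was (800 CPM). The muscle set was poorest by the full sum on all 3 days, at 939, 1398 and 549 CPM.

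Different genes led in different sets, each lead being the highest among overlapping sets and given without a share of all genes. On Day 3 the macrophage set had *Oasl2* at 96.0 CPM against 29.4 CPM elsewhere (log2 ratio 1.70), *Irf7* at 109 against 39 CPM (1.48), *Rtp4* at 101 against 38.3 CPM (1.40) and *Trim30a* at 70.7 against 27.2 CPM (1.38). *Rsad2* on that day was highest in the neutrophil set, at 84.1 CPM against 20.9 CPM, a log2 ratio of 2.01 (1.10 to 2.87). It had 52 UMIs under tissue in the whole section, of which 2 spots held 4 and 3. *Ifi27l2a* was highest in the fat set, at 2521 CPM against 419 CPM and 2.59 (2.43 to 2.75). Without the 2 spots with its highest counts it was at 1799 CPM and 2.10. On Day 7 the lead of *Ifi27l2a* in the fat set was smaller, at 868 CPM against 615 CPM (0.50, 0.37 to 0.63).

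*Isg15* on Day 7 was at 56.7 CPM in the granulation list set, 56.5 CPM in the *Tnc* and *Postn* set and 49.3 CPM in the matrix fibroblast set, which share 68.5% and 60.2% of their spots with the *Tnc* and *Postn* set. It was at 37.1 CPM in the macrophage set, 50% of whose spots were granulation spots. Outside granulation spots it was at 18 CPM in the granulation list set, 20.2 CPM in the matrix fibroblast set and 16.1 CPM in the macrophage set, from 5, 9 and 6 UMIs. In the muscle set it was at 3.66 CPM. On Day 14 *Bst2* was highest in the macrophage set, at 78.9 CPM against 21.4 CPM (1.88, 1.38 to 2.38), as was *Irf7* (1.24). *Ifi47* (1.21) and *Igtp* (0.96) were highest in the dendritic cell and MHC class II set, and *Gbp2* (0.89) in the endothelial set. The plasmacytoid dendritic cell list was dominated by *Cox6a2* and *Ly6d*, genes also known from muscle and epidermis, and its defining gene *Siglech* had 5, 27 and 15 UMIs, so that set does not mark those cells.

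**Figure D4:**
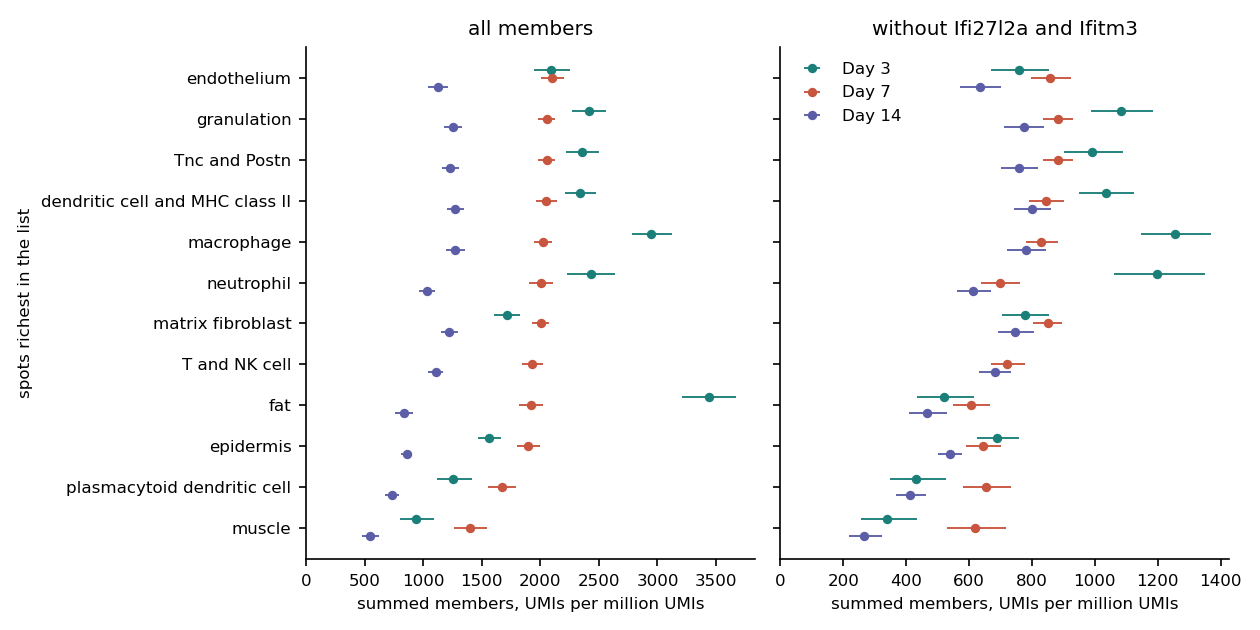
Summed CPM of the members in the spots richest in each of 12 marker sets, with all 37 members (left) and without *Ifi27l2a* and *Ifitm3* (right); points are sections and bars 95% counting intervals. The Day 3 fat set stands far out at 3436 CPM on the left and not on the right. The Day 3 T and NK cell set is not drawn.

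Spatial clustering was measured with Moran's I over adjacent spots, which is near 0 for a random arrangement and near 1 for a smooth one. For the summed score it was 0.22, 0.20 and 0.25 on Day 3, Day 7 and Day 14, against 0.69, 0.67 and 0.63 for the log of total UMIs and 0.35, 0.50 and 0.42 for *Tnc* plus *Postn*. Depth thus had a higher Moran's I than the score. The score rested on a median of only 2, 13 and 5 member UMIs per spot in day order. Counting noise at such counts lowers Moran's I, so the 2 are not on equal terms. In spots thinned to 1000 UMIs the score was at 0.05 on Day 7 and 0.04 on Day 14. Thinning leaves fewer member UMIs still, and the part of depth in the clustering of the score was not tested. Among genes with at least 100 UMIs, a Moran's I of at least 0.1 was reached by 2 of 3 members on Day 3 (37.7% of all genes), 4 of 14 on Day 7 (15.5%) and 0 of 10 on Day 14 (17.9%). The Day 3 genes were *Ifitm3* (0.17) and *Bst2* (0.13), and the Day 7 genes *Ifi27l2a* (0.28), *Isg15* (0.21), *Ifitm3* (0.17) and *Bst2* (0.12). *Rsad2*, *Gbp2* and *Trim30a* lay between -0.02 and 0.01 on Day 7.

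**Figure D5:**
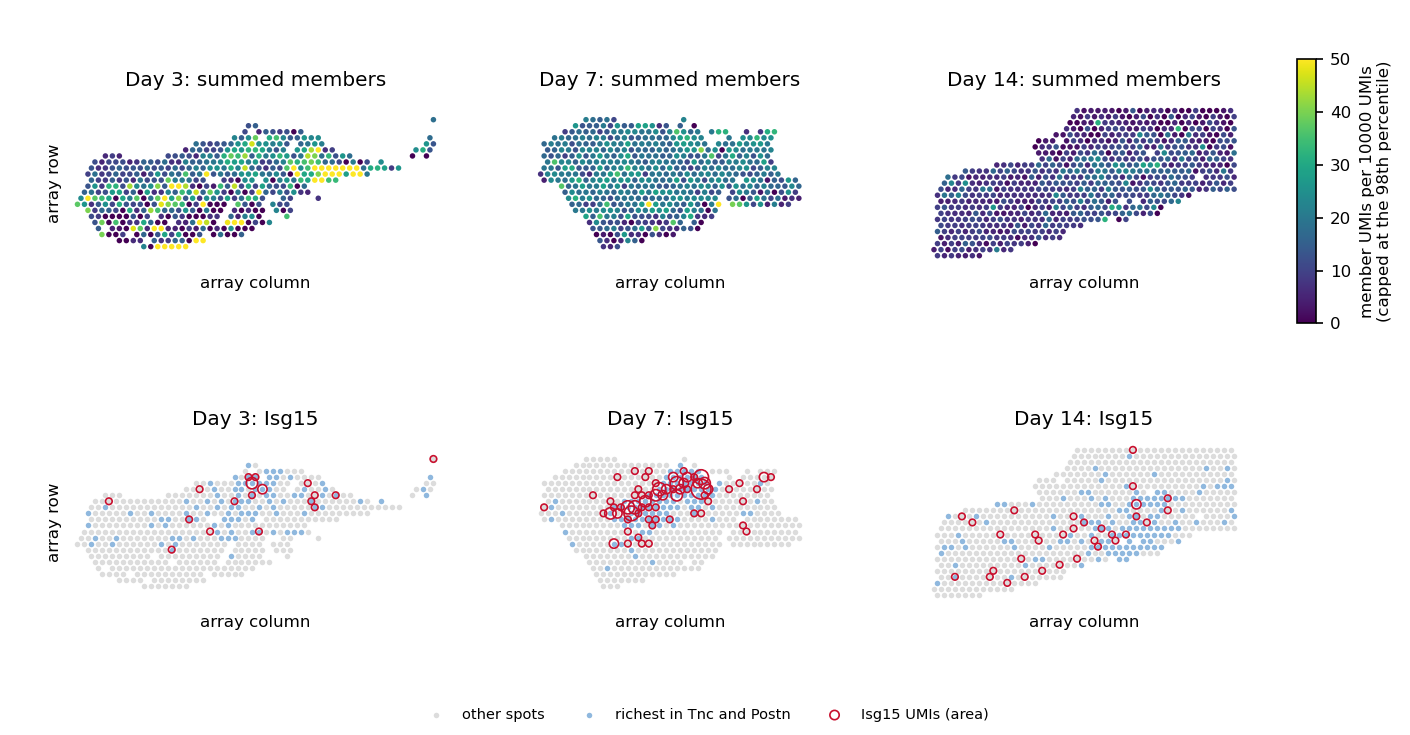
Spots under tissue with at least 500 UMIs, drawn by array column and row at 1 scale: summed member UMIs per 10000 UMIs (top, colour capped at the 98th percentile) and *Isg15* (bottom, red circles with area by UMIs) over granulation spots (blue) and other spots (grey). On Day 7 the *Isg15* circles gather on the blue spots, where 87 of 116 UMIs lie.

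Pairs of genes were compared from spot to spot as a description. The median Pearson correlation between 2 members over spots was 0.12 on Day 3 (3 pairs, 520 spots), 0.044 on Day 7 (91 pairs, 539 spots) and 0.039 on Day 14 (45 pairs, 689 spots), against 0.049, 0.034 and 0.035 for pairs of all genes of at least 100 UMIs. All points of a section share 1 library and differ in depth, and at these counts a weak correlation is no finding. The highest Day 7 pair was *Isg15* with *Bst2*, at 0.18. The genes outside the set most correlated with the summed score were *H2-K1* (0.45), *Apoe*, *Actb*, *Sparc* and *Ctsb* on Day 3, *Col1a2* (0.47), *Col1a1*, *Col3a1*, *Sparc* and *Serpinh1* on Day 7, and *Col1a2* (0.47), *Col1a1*, *Col3a1*, *Sparc* and *Lum* on Day 14. *Col1a1*, *Col1a2* and *Col3a1* encode fibrillar collagen chains and *Serpinh1* a collagen chaperone.

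Spots that the position lists leave outside the marked tissue included 674, 2118 and 1780 spots of at least 500 UMIs. This comparison was added after seeing the data, and what lies under these spots is not given in the sources used here. Against the marked spots, 18, 31 and 31 members were counted. On Day 3, 0 were at least 2-fold higher (3.40% of all genes) and 2 lower, *Ifit1* and *Bst2* (15.9%). On Day 7, *Ifi27l2a* was higher (3.36% of all genes) and 5 were lower, *Zbp1*, *Irf7*, *Isg15*, *Ifi47* and *Cxcl10* (8.91%). On Day 14, 5 were higher, *Isg15*, *Ifit1*, *Ifit3b*, *Cmpk2* and *Ifi27l2a* (2.46%), and 0 lower (13.7%).

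Among these on Day 14, *Ifit1* was at 49.6 CPM in the unmarked spots against 17.6 CPM under tissue, a log2 ratio of 1.5 (1.13 to 1.88), and *Isg15* at 21.8 CPM against 7.16 CPM, at 1.61 (1.03 to 2.22). *Ifit3* was at 47.9 CPM (0.97, 0.64 to 1.31) and *Rsad2* at 43.5 CPM (0.93, 0.59 to 1.29), close to 2-fold. *Bst2* and *Irf7* were nearly level there, at -0.01 and 0.07. On Day 7 the unmarked spots had *Isg15* at 7.90 CPM, below the 26.3 CPM under tissue, and *Ifi27l2a* at 1600 CPM, above the 655 CPM under tissue, at 1.29 (1.23 to 1.35). Cell markers differed as well: in day order, fat genes were higher in unmarked than in marked spots by 0.80, 1.24 and 1.32 on the log2 scale and muscle genes by 1.08, 1.14 and 1.07. Neutrophil genes were higher there by 1.17 on Day 3 and 1.07 on Day 14. Their part in the member differences was not tested. The day on which *Isg15* was highest therefore depended on the spots counted: Day 7 under tissue, and Day 3 and Day 14 (21.7 and 21.8 CPM) outside it.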

How the data were processed

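Visium libraries of 1 section per day (Day 3, Day 7, Day 14) were sequenced, and the deposited values are raw UMI counts, which the authors made with Space Ranger 1.3.0 on mm10 (per the submitters' processing notes); the annotation version is not given in the sources used here. Groups came from the day in the labels. No count test was run, because each day has 1 section. UMIs were summed over marked spots and divided by all UMIs. Genes were called at 2-fold with at least 50 UMIs. Intervals were exact at 95% and cover counting error only. Granulation spots, Moran's I (6 neighbours, log1p of UMIs per 10000) and thinning (1000 UMIs, seed 1) are described with the results. The members and lists were chosen with earlier results of these data known. The named genes were the 39 members, *Tnc*, *Postn*, the pathway and marker lists, and the 5 genes most correlated with the score. List symbols *Sting1* (as *Tmem173*), *Oas1b* and *Cxcl11* had no match. 1 gene of the pathway lists is not reported here. No doublet caller was run, since a spot can hold several cells. Tools were Python 3.11.15, numpy 2.4.6, scipy 1.17.1, pandas 2.3.3, matplotlib 3.10.9 and R 4.3.3 with edgeR 4.0.16 and DESeq2 1.42.0 for the scaling alternatives. The intervals and Moran's I were tested on simulated data. Promoters came from RefSeq (GRCm38.p6).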

Additional observations from a re-analysis of the deposited data

Results flagged for a closer look

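Unmarked spots, left out of the comparisons by day and by region, also held the summed members, at 1970, 2343 and 1109 CPM on the successive days against 2097, 1951 and 942 CPM under tissue. *Ifi27l2a* was lower in granulation spots than in the other spots on Day 3 (log2 ratio -0.65) and Day 7 (-0.52) but higher on Day 14 (0.65). Without the 2 spots richest in *Ifi27l2a*, the Day 3 value was -0.34 and the Day 14 value 0.50. The difference between the days was not tested.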

How the results depend on the processing

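No paired analysis was possible because each day has 1 section. The counts at altered settings in this section have no share of all genes beside them and are a description only. The Day 7 against Day 3 log2 ratio of the sum (-0.10) turned to 0.10 when all spots of the slide were used, and was -0.038 without *Ifi27l2a* and *Ifitm3* and -0.030 without the 2 spots richest in *Ifi27l2a* of each section (both chosen after seeing the data). Day 14 against Day 3 (-1.16) was -0.99 over all spots, -1.25 with TMM factors, -1.29 with DESeq2 size factors, -0.75 without the member with the most UMIs, -0.46 without both genes and -0.44 with equal weights. Day 14 against Day 7 (-1.05) was -0.98 by mean spot CPM, -1.15 with TMM, -1.17 with DESeq2, -0.65, -0.42 and -0.35 in the last 3 settings. DESeq2 factors moved the median of all genes for Day 14 against Day 3 from 0.18 to 0.05. Members higher on Day 7 than on Day 3 (3) became 5 at 1.5-fold, 0 at a minimum of 200 UMIs and 5 by interval; those lower (0) became 6 at 1.5-fold, 1 at 20 UMIs or with no minimum, 7 by interval and 3 by mean spot CPM. Higher on Day 14 than on Day 3 (3) became 6, 0 and 5, and lower (9) became 3 at 200 UMIs. Higher on Day 14 than on Day 7 (1) became 3, 0 and 4, and lower (9) became 4 at 200 UMIs.

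The granulation log2 ratio of the sum on Day 3 (0.23) was 0.046 by *Tnc* alone, 0.61 without the top member, 0.49 without both genes, 0.12 without muscle-rich spots, 0.34 without the 2 spots and 0.013 thinned. On Day 7 (0.11) it was 0.41 without the top member, 0.34 without both genes, 0.048 with the 50 most abundant genes out of the denominator and 0.18 thinned. On Day 14 (0.49) it was 0.68 with 10% of spots and 0.22 by *Tnc* alone. The Day 3 count higher in granulation spots (1) became 2 at 1000 UMIs per spot and 0 by *Postn* alone, with the other denominator, without muscle-rich spots or thinned. The Day 7 count (2) became 1 with 33% of spots or the other denominator, and 0 by *Tnc* alone or thinned. The Day 14 count (3) became 5 with 10% of spots, and 0 by *Tnc* alone or thinned. Counts lower (0) became 1 with 10% of spots on Day 7 and Day 14 and 1 by the granulation list on Day 14. *Irf7* on Day 14 turned to -0.063 by *Tnc* alone. Thinning leaves fewer UMIs, so fewer genes reach the minimum, and it gave no value for *Rsad2* on Day 7.

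Clustered members became 0 at a Moran's I of 0.2 and 1 thinned on Day 3, 2 and 0 on Day 7, and 3 at 0.05 on Day 14. Many other genes also pass 0.05 on Day 14, since *Bst2* at 0.051 had only 57.5% of genes below it. The score's Moran's I when thinned was 0.052 on Day 7 and 0.039 on Day 14. The median pair correlation was 0.067 thinned on Day 3, and 0.088 and 0.078 by Spearman on Day 7 and Day 14. The cause of these shifts was not tested. Depth limits the Day 3 section most.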
